A study of Mus musculus with 2 samples.

Results

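Heat shock proteins and their co-chaperones are represented here by 10 genes (Hspa1a, Hspa1b, Dnajb1, Hsph1, Hspa8, Hsp90aa1, Hsp90ab1, Dnaja1, Hspd1 and Hspe1), chosen by symbol from the 32285 genes of each count matrix. All 10 were found, each under a single symbol, and took 0.358% of the UMIs (unique molecular identifiers, which mark captured transcripts) of retained cells in the CKO-labelled library and 0.375% in the WT-labelled library. Single immune cells from the inflamed colon of C57BL/6 mice with experimental colitis were sequenced from the 3′ end of their RNA on the 10x platform, in 1 library labelled CKO and 1 labelled WT. RPA1, a subunit of the single-stranded DNA binding protein RPA, is named in the title as the protein lost; the sources used here give no targeted exon, Cre driver, age or number of mice for a library. Rpa1 stood at 53.7 CPM (UMIs per 1000000) in T-like cells of the CKO-labelled library and 36.0 CPM in T-like cells of the WT-labelled library, so it was not lower there. In B-like cells it stood at 25.2 and 27.5 CPM in that order. Over all retained cells, whose mix of classes differed, it stood at 19.9 and 24.6 CPM. Whether its 3′ reads fall in the deleted part is not known from the labels. Each label has 1 library, so label, animal, preparation and library cannot be told apart, no test between labels is possible, and every interval below is a 95% interval of counting error only.

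Chaperones bind unfolded stretches of other proteins and help them fold, assemble or reach degradation. HSP70 proteins do so in cycles driven by ATP, in which J-domain co-chaperones deliver the client and nucleotide exchange factors release it, and HSP90 proteins act later on clients such as kinases and steroid receptors. When proteins unfold under heat, oxidative stress or inflammation, the transcription factor HSF1 binds heat shock elements, inverted repeats of the bases GAA, and switches on the inducible members, while the constitutive members serve protein synthesis at all times. Chaperone genes are also known to be raised when lymphocytes are activated and start to grow.

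The members were set in 3 groups. Hspa1a and Hspa1b (both encode the inducible HSP70), Dnajb1 (its J-domain partner, HSP40) and Hsph1 (HSP110, a nucleotide exchange factor) form the stress-inducible group. Hspa8 (constitutive HSC70), Hsp90aa1 and Hsp90ab1 (the cytosolic HSP90 proteins alpha and beta) and Dnaja1 (a farnesylated J-domain protein) form the cytosolic constitutive group. Hspd1 (HSP60) and Hspe1 (HSP10) are the barrel and the lid of the mitochondrial chaperonin.

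In the GENCODE vM21 annotation of GRCm38, Hspa1a (chr17:34969190-34972156) and Hspa1b (chr17:34956436-34959238) are single-exon genes on the minus strand, 9951 bases apart. Hsp90ab1 lies on the same chromosome (chr17:45567775-45573271), and the other members are Dnajb1 (chr8:83608193-83612653), Hsph1 (chr5:149614287-149636376), Hspa8 (chr9:40800984-40810087), Hsp90aa1 (chr12:110690605-110702728) and Dnaja1 (chr4:40722150-40737149). Hspd1 (chr1:55077835-55088243, minus strand) and Hspe1 (chr1:55088132-55091307, plus strand) lie head to head and share 112 bases of opposite strands. RefSeq upstream windows (GRCm38.p6) were held for 7 of the 10 members: Hspa1a, Hspa1b, Dnajb1, Hsph1, Dnaja1, Hspd1 and Hspe1. Stretches upstream of the RefSeq starts are shown because the inducible pair carries the difference described for B-like cells, and because the stretches hold units of heat shock elements. The stretches shown for Hspe1, Hsph1 and Dnaja1 lie wholly or mostly inside the GENCODE genes Hspd1, Hsph1 and Dnaja1, which extend beyond the RefSeq starts. Each reads 5′ to 3′ on the strand of its gene, and capitals mark the units GAANNTTC or TTCNNGAA, alone or overlapping.
Hspa1a, chr17:34972157-34972276, minus strand: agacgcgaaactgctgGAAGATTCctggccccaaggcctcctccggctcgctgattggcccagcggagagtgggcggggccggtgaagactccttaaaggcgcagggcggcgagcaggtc
Hspa1b, chr17:34959239-34959358, minus strand: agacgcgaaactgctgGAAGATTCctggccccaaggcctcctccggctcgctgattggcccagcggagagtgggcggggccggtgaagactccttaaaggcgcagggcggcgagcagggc
Hspe1 and Hspd1, chr1:55088048-55088077, plus strand: gccacggtccgTTCTAGAACCTTCCGGAAg
Hsph1, chr5:149636351-149636380, minus strand: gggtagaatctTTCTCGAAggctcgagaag
Dnaja1, chr4:40722333-40722362, plus strand: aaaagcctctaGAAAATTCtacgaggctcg
Hspa1a and Hspa1b differed at 1 of these 120 bases and at 3 of the 250 bases upstream of their starts. At least 1 unit, on either strand since each unit is its own reverse complement, was found in the upstream 250 bases of 6 of the 7 members, Dnajb1 being the other, against 14.5% of 27025 genes in the same table. Overlapping units, in which GAA, TTC and GAA or TTC, GAA and TTC follow each other with 2 bases between, were found in the shared window of Hspd1 and Hspe1 and in 0.514% of genes. A match describes letters and is not a measured binding site.

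The coding sequences of Hspa1a and Hspa1b differ at 8 of 1926 aligned bases (99.6% identity), whereas their parts after the stop codon are 70.2% identical over 544 aligned bases. The sources used here do not say how reads matching both genes were counted, so the split between them is uncertain, and their sum is given beside each. In B-like cells Hspa1a took 52.0% (49.6 to 54.4) of the pair's UMIs in the CKO-labelled library and 51.0% (48.0 to 53.9) in the WT-labelled library. The antisense gene Gm20481 has an exon that overlaps Hspa1a, and the labels do not say whether counting used strand.

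After filtering, 10942 of 11311 barcodes of the CKO-labelled library and 2924 of 2972 of the WT-labelled library were retained, with medians of 3334 and 4136 UMIs a cell in that order, and 6 barcodes occurred in both. Cells were clustered without the chaperone and immediate early genes, and clusters were named from marker lists. Unnamed clusters held 1555 cells (14.2%) of the CKO-labelled library and 834 (28.5%) of the WT-labelled library. Clusters with markers of another lineage, called mixed, held 195 (1.78%) and 46 (1.57%) in that order. These cells are in no class below. An unnamed cluster led by Ighg2b, Igha and Igkc held 28 and 478 cells in that order. Another, with 5 T markers among its top 10 genes, held 50 and 74. Both libraries held 20 or more cells of 8 classes. Of these, T-like (622 and 371 cells, CKO first), B-like (4533 and 1056) and plasma-like (497 and 213) had at least 200 in each, and each showed a UMI of all 10 of its own markers. The others were neutrophil-like (1753 and 166), dendritic-like (318 and 27), NK-like (241 and 26), ILC2-like (276 and 101) and ILC3-like (109 and 37), the last 2 being innate lymphoid cells. The Scrublet doublet caller marked 1.91% of cells of the CKO-labelled library and 0.0342% of the WT-labelled library, so doublets may remain. Markers of another cell type, which free RNA or doublets can carry into a cell, differed between the libraries. The 10 neutrophil markers summed to 278 CPM in B-like cells of the CKO-labelled library, with all 10 read, and to 74.1 CPM in those of the WT-labelled library, with Ly6g and Mmp8 at 0. In T-like cells they summed to 267 and 105 CPM in that order, with Cxcr2, Ly6g and Mmp8 at 0 in the WT-labelled library. Their part in the results below was not tested.

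The inducible pair was unevenly spread over the cell classes. Hspa1a was at 62.0 CPM in B-like and 54.4 CPM in T-like cells of the CKO-labelled library, and at 124 CPM in B-like and 59.1 CPM in T-like cells of the WT-labelled library. In the CKO-labelled library its order over 13 classes of at least 20 cells was led by fibroblast-like cells (175 CPM, 73 UMIs), above dendritic-like cells (86.5 CPM), which did not differ from epithelial-like cells (71.3 CPM) beyond counting error. In the WT-labelled library, over 8 such classes, B-like cells led, followed by T-like and neutrophil-like cells (24.0 CPM from 9 UMIs). Mast-like cells had 1 UMI of Hspa1a in the CKO-labelled library (3.78 CPM), and plasmacytoid dendritic-like cells had no UMI.
Hspa1b was led by ILC3-like (60.1 CPM), fibroblast-like (59.8 CPM) and B-like cells (57.2 CPM) in the CKO-labelled library, levels that did not differ beyond counting error. In the WT-labelled library it was led by B-like (119 CPM) and T-like cells (75.6 CPM).

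Dnajb1, the J-domain protein that feeds clients to HSP70, was more even. It ran between 29.9 CPM in monocyte and macrophage-like cells and 196 CPM in epithelial-like cells of the CKO-labelled library, a 6.57-fold range, and between 26.3 CPM in dendritic-like cells and 83.8 CPM in T-like cells of the WT-labelled library. Hsph1 was highest in T-like and B-like cells, at 86.1 and 75.9 CPM in the CKO-labelled library and 61.7 and 69.0 CPM in the WT-labelled library, and the 2 classes did not differ beyond counting error in either library. Neutrophil-like cells almost lacked it, with 6 UMIs (1.16 CPM) in the CKO-labelled library and 2 UMIs (5.34 CPM) in the WT-labelled library.

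Among the constitutive members, Hspa8 was highest in monocyte and macrophage-like cells of the CKO-labelled library (1494 CPM), above dendritic-like (1352 CPM) and NK-like cells (1331 CPM), which did not differ beyond counting error. In the WT-labelled library it was led by NK-like (1268 CPM) and T-like cells (1117 CPM), also within counting error of each other. Hsp90ab1, the steadily made HSP90, stood at 1746 CPM in T-like and 1600 CPM in B-like cells of the CKO-labelled library and at 1849 and 1663 CPM in the same classes of the WT-labelled library. Mast-like cells held the most of it in the CKO-labelled library (2084 CPM). Hsp90aa1, the HSP90 gene that also answers HSF1, stood at 895 CPM in T-like cells of the CKO-labelled library and 797 CPM in those of the WT-labelled library.
Dnaja1 followed another order than the rest of its group. It was highest in T-like (738 CPM) and ILC2-like cells (703 CPM) of the CKO-labelled library, which did not differ beyond counting error, and in ILC2-like cells of the WT-labelled library (931 CPM), above ILC3-like cells (697 CPM). B-like cells held less, at 211 CPM in the CKO-labelled library and 242 CPM in the WT-labelled library.

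The mitochondrial chaperonin was unevenly spread. Hspe1 was highest in B-like cells, among 13 classes of the CKO-labelled library and 8 of the WT-labelled library, at 541 CPM in the CKO-labelled library and 562 CPM in the WT-labelled library. Hspd1 stood at 165 CPM in B-like and 167 CPM in T-like cells of the CKO-labelled library, and at 141 CPM in both classes of the WT-labelled library. Neutrophil-like cells had 4.64 CPM of Hspd1 (24 UMIs) and 11.8 CPM of Hspe1 in the CKO-labelled library, and 5.34 CPM (2 UMIs) and 34.7 CPM in the WT-labelled library.
Neutrophil-like cells were low in most members and not in all. Hsp90ab1 was at 117 CPM in those of the CKO-labelled library and 171 CPM in those of the WT-labelled library, the lowest class in each. Dnaja1 was at 240 and 374 CPM in that order, above B-like cells of the same library in both. Their median depth was 2609 UMIs in the CKO-labelled library and 2118 UMIs in the WT-labelled library.

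**Figure D1:**
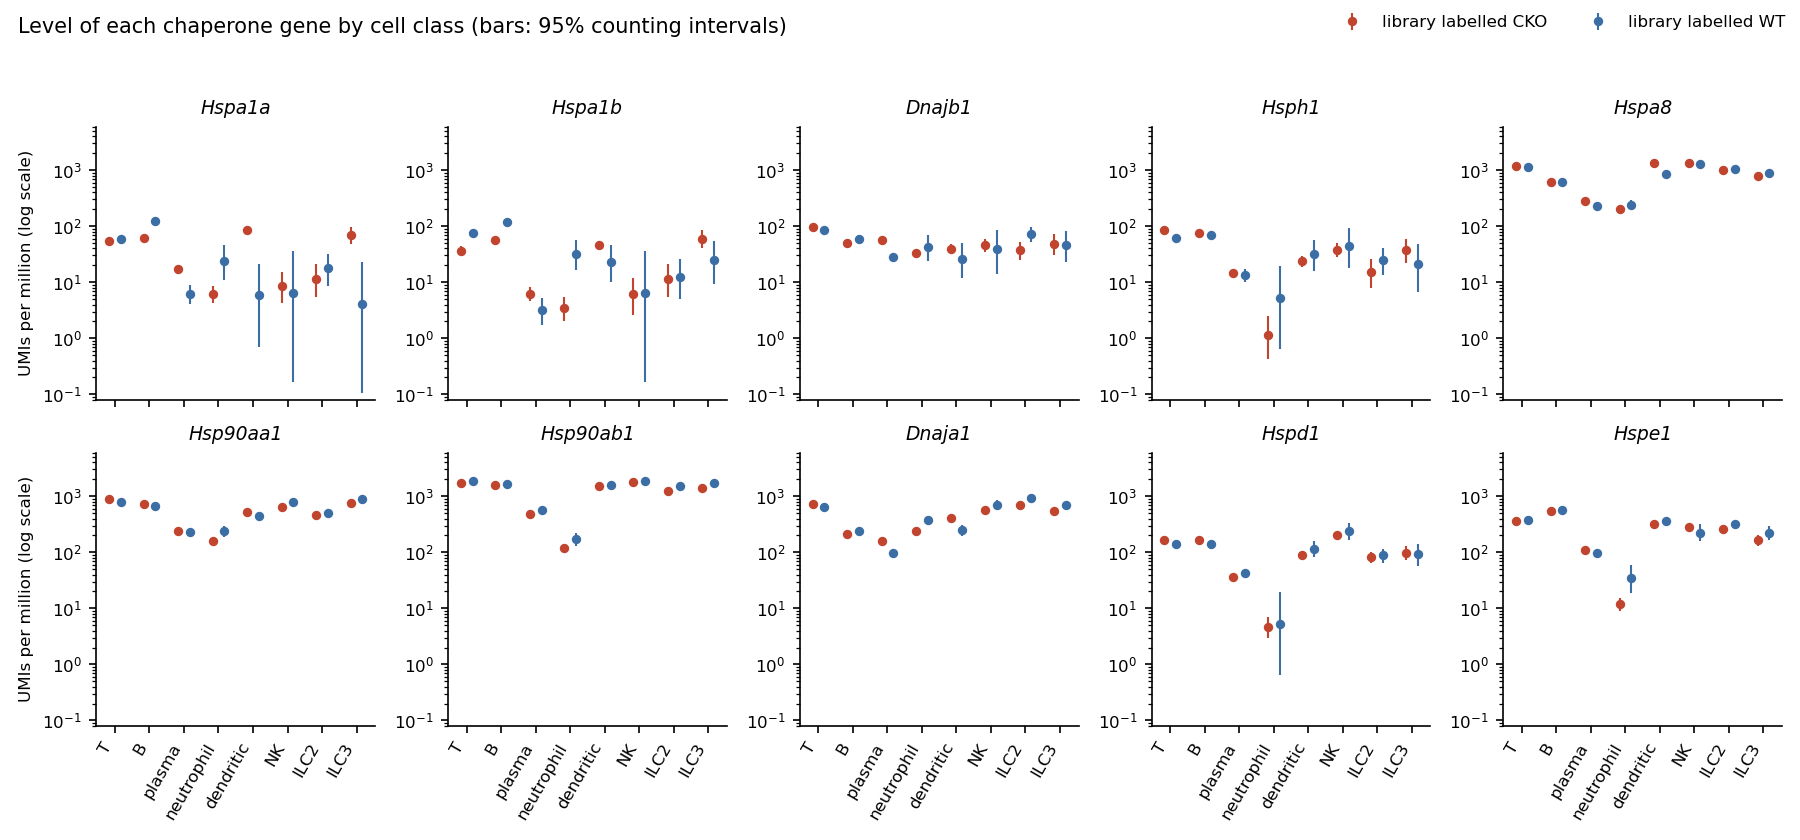
Level of each of the 10 chaperone genes (y axis, CPM on a log scale) in the 8 cell classes that reached 20 cells in both libraries (x axis); red points, on the left of each pair, are the CKO-labelled library and blue points the WT-labelled library, with bars for 95% counting intervals. Neutrophil-like cells stand lowest for Hsph1, Hspd1 and Hspe1, as at 1.16 CPM of Hsph1 in the CKO-labelled library, while Dnaja1 stays at 240 CPM there.

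Plasma-like cells gave low CPM for nearly every member. Immunoglobulin transcripts took 50.8% of their UMIs in the CKO-labelled library and 52.8% in the WT-labelled library. In B-like cells they took 0.92% and 1.37% in that order. The part of immunoglobulin in the low CPM was not tested. The 10 members together came to 1416 CPM in plasma-like cells of the CKO-labelled library and 1301 CPM in those of the WT-labelled library, against 4117 and 4275 CPM in B-like cells in the same order.

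Across the 21 class-by-library units of at least 20 cells, the members varied in sets. As descriptions over units that share libraries and differ in depth, Pearson's r of log2(CPM + 10) was 0.88 between Hspa1a and Hspa1b, 0.88 between Hspd1 and Hspe1, 0.90 between Hsp90aa1 and Hsp90ab1 and 0.92 between Hspd1 and Hsp90ab1. Hspa1a was less like Dnajb1 (0.54), its co-chaperone, and Hsph1 (0.52), and unlike Hspa8 (0.15) and Dnaja1 (-0.04). Among 5533 genes, those with the pattern most like Hsp90ab1 were Hnrnpab, Serbp1 and Snrpd1 (0.98 each), Snrpf and Eif3d (0.97 each). For Hspd1 they were Tomm5 (0.95), Micos13 and Mrpl12 (0.93 each), Hsp90ab1 and Mrpl9 (0.92 each). For Hspa1a they were Hspa1b, Cnn3 (0.85), Tsen34 (0.77), Id3 and Oat (0.69 each). Cnn3, Tsen34, Id3 and Oat were each highest in fibroblast-like cells. Hspa1a was highest there too (175 CPM, 44 cells of the CKO-labelled library). How far the likeness of these genes rests on that unit was not tested.

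In B-like cells the inducible HSP70 genes were lower in the CKO-labelled library, and the other members were close to level. Hspa1a had 898 UMIs, 62.0 CPM (58.0 to 66.2), in the CKO-labelled library and 578 UMIs, 124 CPM (114 to 135), in the WT-labelled library, a log2 ratio of -1.0 (-1.16 to -0.85). Hspa1b had 57.2 CPM (53.4 to 61.2) in the CKO-labelled library and 119 CPM (110 to 130) in the WT-labelled library, a log2 ratio of -1.06 (-1.22 to -0.90). Their sum was 119 CPM (114 to 125) in the CKO-labelled library and 244 CPM (230 to 258) in the WT-labelled library, a log2 ratio of -1.03 (-1.14 to -0.92). Hspa1a and Hspa1b were the 2 members of 10 at least 1.5-fold lower in the CKO-labelled library, where 7.59% of 10515 genes with at least 20 UMIs were, and no member was at least 1.5-fold higher, where 5.21% of genes were.
The co-chaperones did not share the size of that difference. Dnajb1 had 49.6 CPM in the CKO-labelled library and 60.2 CPM in the WT-labelled library (log2 ratio -0.28, -0.48 to -0.07), and Hsph1 had 75.9 and 69.0 CPM in that order (0.14, -0.04 to 0.32). The summed constitutive group stood at 3166 CPM in the CKO-labelled library and 3200 CPM in the WT-labelled library (-0.02, -0.04 to 0.01), and the chaperonin at 707 and 702 CPM (0.01, -0.05 to 0.07). Within the constitutive group Hsp90aa1 was slightly higher (731 CPM in the CKO-labelled library, 679 CPM in the WT-labelled library) and Dnaja1 slightly lower (211 and 242 CPM). The summed stress-inducible group, which holds Hspa1a and Hspa1b, was at 245 CPM in the CKO-labelled library and 373 CPM in the WT-labelled library (-0.61, -0.69 to -0.52). The median log2 ratio was -0.05 over the 10 members and -0.05 over all genes read in B-like cells.

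Immediate early genes, which answer within minutes to stimulation or stress, differed in this class and in others. Of 21 listed, 11 were at least 1.5-fold lower and none at least 1.5-fold higher in B-like cells of the CKO-labelled library, where 7.59% of 10515 genes were lower and 5.21% higher, and their median log2 ratio was -0.59. Jun had 268 CPM in the CKO-labelled library and 539 CPM in the WT-labelled library, Fos 166 and 467 CPM, and Klf2 273 and 629 CPM in that order. In NK-like cells 8 of 19 immediate early genes read were at least 1.5-fold lower (13.9% of all genes were). In ILC2-like cells 8 of 20 were (10.8%), in ILC3-like cells 7 of 18 (13.8%) and in dendritic-like cells 6 of 20 (12.7%). At least 1.5-fold higher was 1 in ILC2-like cells (13.5%) and none in the others (22.5, 13.1 and 24.5%). The summed pair had log2 ratios of 0.17, -0.38, 2.16 and 2.18 in the same order. The part of immediate early genes in the difference of Hspa1a and Hspa1b was not tested. The median mitochondrial share of B-like cells was 3.96% in the CKO-labelled library and 3.93% in the WT-labelled library.

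The UMIs of the pair sat in few cells. No UMI of either gene was found in 94.3% of B-like cells of the CKO-labelled library and 87.6% of those of the WT-labelled library, with median depths of 2889 and 3957 UMIs in that order. Cells with 5 or more UMIs of the pair were 101 (2.23%) in the CKO-labelled library and 64 (6.06%) in the WT-labelled library, and they held 85.1% and 89.2% of the pair's UMIs, with up to 51 and 82 UMIs in 1 cell. The level of the pair therefore rests on a few percent of cells, and counting intervals, which treat UMIs as independent, do not cover the spread between cells. The boundary fell in a sparse range, since 11 B-like cells of the CKO-labelled library and 7 of the WT-labelled library had exactly 4 UMIs of the pair, and 12 and 6 had exactly 5.
With each cell thinned to 1000 UMIs, and 118 shallower B-like cells of the CKO-labelled library and 27 of the WT-labelled library left out, Hspa1a was found in 2.83% (2.36 to 3.36) of B-like cells of the CKO-labelled library and 6.12% (4.74 to 7.77) of those of the WT-labelled library. Unthinned, the shares were 3.95 and 9.19% in that order. No class is known to lack the gene; in neutrophil-like cells the thinned shares were 0.702% in the CKO-labelled library and 1.91% in the WT-labelled library.

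In the cells that carried the pair, the other chaperones were high as well; this describes cells chosen by their pair UMIs. Dnajb1 was at 37.1 CPM in B-like cells with no pair UMI, 138 CPM in those with 1 to 4 and 428 CPM in those with 5 or more in the CKO-labelled library, and at 43.3, 111 and 244 CPM in the same order in the WT-labelled library. Hspa8 was at 580, 1223 and 1526 CPM in the CKO-labelled library and at 527, 893 and 1578 CPM in the WT-labelled library in that order. These members, the J-domain partner and the constitutive HSP70, were lowest in cells without the pair in both libraries. Hsp90aa1 was at 677, 1405 and 1902 CPM in the CKO-labelled library and 609, 789 and 1554 CPM in the WT-labelled library. Hspd1 was at 152, 359 and 407 CPM in the CKO-labelled library and 130, 181 and 254 CPM in the WT-labelled library. Hsp90ab1 was less uneven, at 1555, 2411 and 2124 CPM in the CKO-labelled library and 1610, 1876 and 2187 CPM in the WT-labelled library.
Jun followed the same order, at 220, 696 and 1588 CPM in the CKO-labelled library and 437, 752 and 1747 CPM in the WT-labelled library. The small heat shock protein gene Hspb1 was at 108 CPM in cells with 5 or more pair UMIs and 2.13 CPM in cells with none in the CKO-labelled library, and at 141 and 2.21 CPM in the WT-labelled library. In cells with 1 to 4 it was at 29.9 CPM in the CKO-labelled library and 3.36 CPM (1 UMI) in the WT-labelled library. T-like cells with 5 or more pair UMIs had no UMI of Hspb1 in either library. The nucleotide exchange factor gene Bag3 had no UMI in B-like cells with 5 or more pair UMIs of either library. In B-like cells with none, Bag3 was at 2.35 CPM in the CKO-labelled library and 1.48 CPM in the WT-labelled library. B-like cells of the 3 ranges had median depths of 2889, 2958 and 2866 UMIs in the CKO-labelled library. In the WT-labelled library the medians were 4012, 3717 and 3672 UMIs. By median, the B-like cells with 5 or more pair UMIs were thus not deeper than those with none. T-like cells differed, with medians of 3796 UMIs (none) and 5042 UMIs (5 or more) in the CKO-labelled library. Those of the WT-labelled library had 4683 and 4728 UMIs in that order. The part of depth in these levels was not tested.

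**Figure D2:**
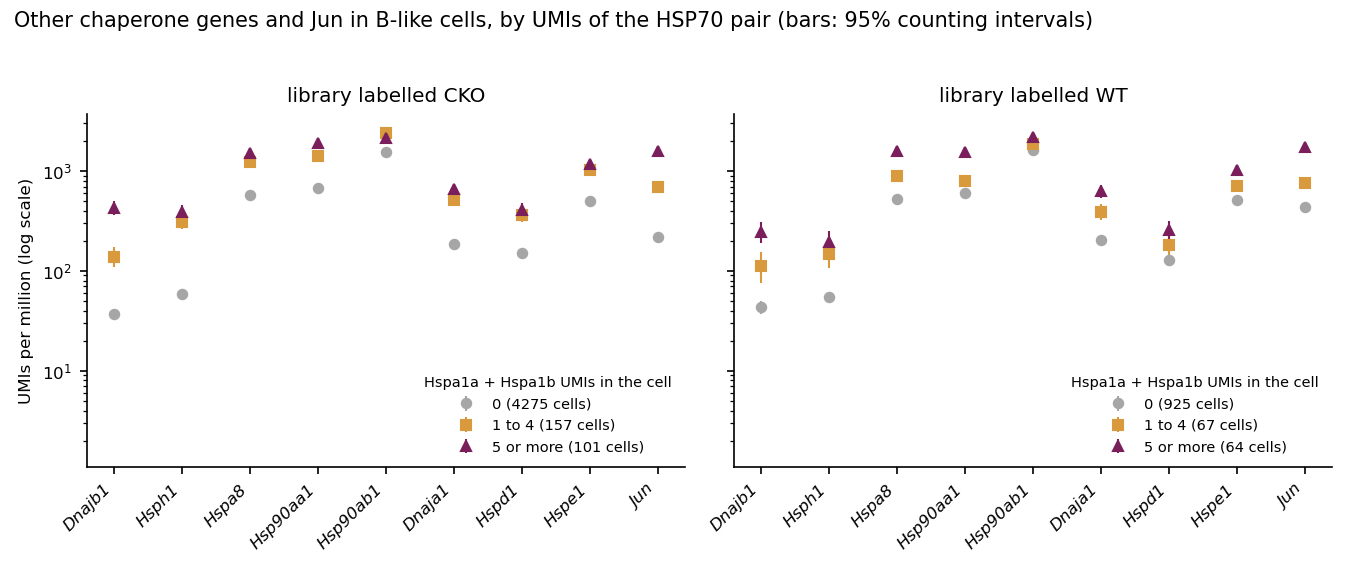
Level (y axis, CPM on a log scale) of the other 8 chaperone genes and Jun (x axis) in B-like cells with 0 (grey), 1 to 4 (orange) and 5 or more (purple) UMIs of Hspa1a and Hspa1b, in the CKO-labelled library (left) and the WT-labelled library (right), with 95% counting intervals. Each gene is lowest in cells without the pair, as for Dnajb1, at 428 CPM in cells with 5 or more pair UMIs against 37.1 CPM in cells with none in the CKO-labelled library.

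The B-like class is a mix of clusters, and the mix differed between the libraries. The largest cluster was led by Pkib, Serpina3g, Ighd and Bank1 in the CKO-labelled library (786 cells) and by Fcer2a, Dmxl1, Ebf1 and Scd1 in the WT-labelled library (308 cells). In the first of these the pair summed to 7.07 CPM in the CKO-labelled library and 17.8 CPM in the WT-labelled library, and in the second to 15.8 and 82.8 CPM in that order. The highest level was in the cluster led by Gm8369, Zfp318, Fchsd2 and Gm31243, at 471 CPM in the CKO-labelled library and 722 CPM in the WT-labelled library (log2 ratio -0.62). The cluster led by the interferon-induced genes Ifi214, Slfn5 and Pml, with Pkib, had 127 CPM in the CKO-labelled library and 691 CPM in the WT-labelled library (-2.45).
Over the 9 B-like clusters with at least 20 cells in each library the pair was lower in the CKO-labelled library in 6, with intervals below 0 in 5, and higher in 3, with an interval above 0 in 1. Jun, Fos and the summed immediate early list were lower in the CKO-labelled library in all 9. The constitutive group stayed between log2 ratios of -0.29 and 0.25 in those clusters.

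**Figure D3:**
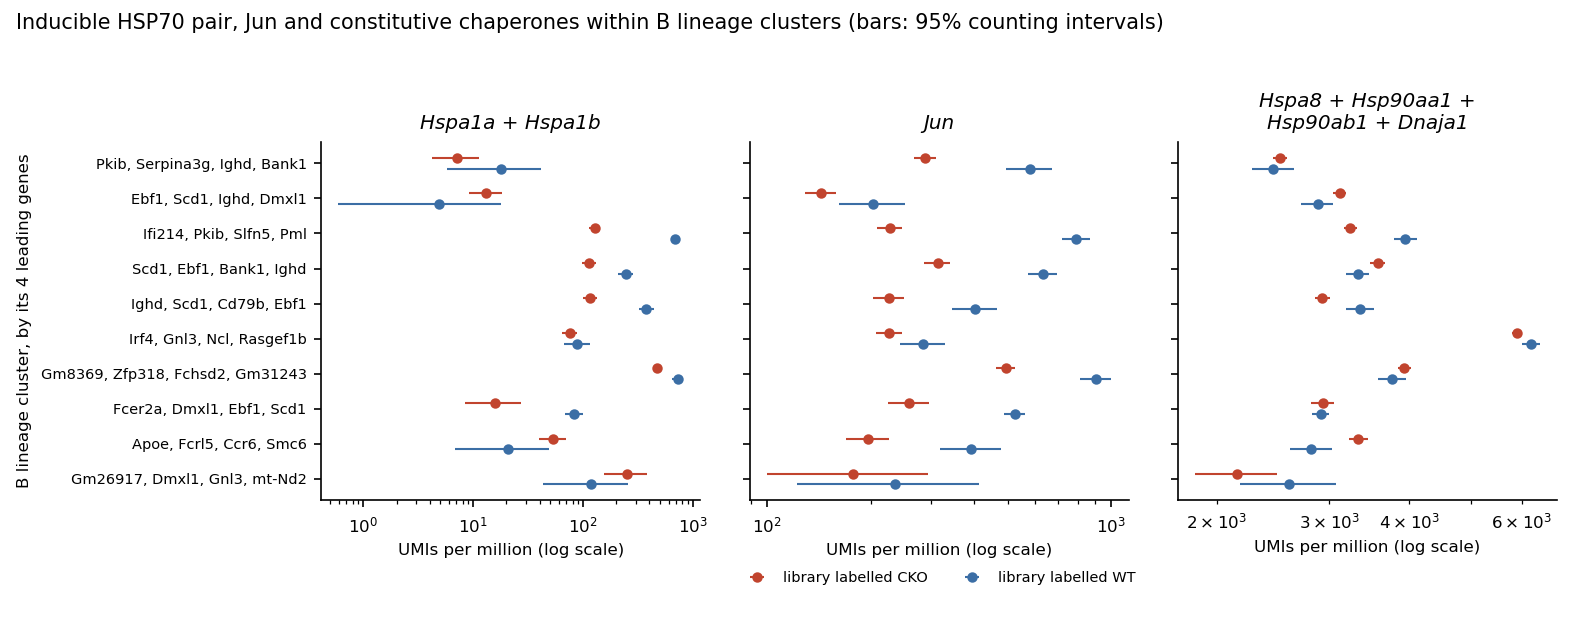
Summed Hspa1a and Hspa1b (left), Jun (middle) and the summed constitutive group (right), in CPM on log x axes, in each B lineage cluster with at least 20 cells in each library, named by its 4 leading genes; red points, upper in each pair, are the CKO-labelled library and blue points the WT-labelled library, with 95% counting intervals. The pair spans the range between 7.07 and 471 CPM in the CKO-labelled library, and the constitutive group is highest in the cluster led by Irf4 and Gnl3 in both libraries.

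In T-like cells the level of the pair was nearer between the libraries. Hspa1a had 146 UMIs, 54.4 CPM (45.9 to 64.0), in the CKO-labelled library and 115 UMIs, 59.1 CPM (48.8 to 71.0), in the WT-labelled library, a log2 ratio of -0.12 (-0.48 to 0.25). Hspa1b had 35.8 CPM (29.0 to 43.7) in the CKO-labelled library and 75.6 CPM (63.8 to 88.8) in the WT-labelled library (-1.08, -1.47 to -0.70). Hspa1b was the only member at least 1.5-fold lower in the CKO-labelled library, where 8.18% of 8837 genes were, and none was at least 1.5-fold higher, where 13.3% of genes were.
The sum of both, which does not depend on the split between them, was 90.2 CPM (79.2 to 102) in the CKO-labelled library and 135 CPM (119 to 152) in the WT-labelled library, a log2 ratio of -0.58 (-0.84 to -0.32). Cells with 5 or more pair UMIs numbered 15 in the CKO-labelled library and 11 in the WT-labelled library and held 71.5% and 79.4% of the pair's UMIs in that order. Hsph1 leaned the other way, at 86.1 CPM in the CKO-labelled library and 61.7 CPM in the WT-labelled library (0.48, 0.16 to 0.81), and its log2 ratio was 1.06 with cells thinned to 1000 UMIs.
The constitutive group summed to 4561 CPM in T-like cells of the CKO-labelled library and 4405 CPM in those of the WT-labelled library (0.05, 0.01 to 0.09), and the chaperonin to 525 and 521 CPM in that order (0.01, -0.11 to 0.13). The summed stress-inducible group was at 272 CPM in the CKO-labelled library and 280 CPM in the WT-labelled library (-0.04, -0.21 to 0.12). The median log2 ratio was 0.12 over the 10 members and 0.06 over all genes read in T-like cells. The largest T-like cluster was led by Ikzf2, Cd7, Cd3g and Cd3d in the CKO-labelled library (132 cells) and by Lef1, Tcf7, Ly6c1 and Trib2 in the WT-labelled library (125 cells). The pair was lower in the CKO-labelled library in 5 of 6 T-like clusters, with intervals below 0 in 2 of the 5, and higher in the cluster led by Il17a, Cd163l1, Trdc and Trdv4, at 185 CPM against 89.7 CPM in the WT-labelled library.
Of 20 immediate early genes read in T-like cells, 6 were at least 1.5-fold lower in the CKO-labelled library, where 8.18% of genes were, and 2 at least 1.5-fold higher, where 13.3% were, with a median log2 ratio of -0.17. Fos was at 204 CPM in the CKO-labelled library and 394 CPM in the WT-labelled library (-0.95), Zfp36 at 142 and 287 CPM (-1.01) and Klf2 at 199 and 392 CPM (-0.98) in that order. The 2 higher were Egr1, at 145 and 95.1 CPM (0.61, 0.36 to 0.87), and Nr4a1, at 176 and 117 CPM (0.59, 0.36 to 0.82). Egr1 and Nr4a1 were named after their values were seen. The part of immediate early genes in the difference of Hspa1b was not tested.

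Plasma-like cells ran the other way. Hspa1a had 135 UMIs, 17 CPM (14.3 to 20.1), in the CKO-labelled library and 27 UMIs, 6.13 CPM (4.04 to 8.92), in the WT-labelled library, a log2 ratio of 1.47 (0.87 to 2.13). Hspa1b had 6.18 CPM in the CKO-labelled library and 3.18 CPM in the WT-labelled library (0.96, 0.08 to 1.93). The sum of both HSP70 genes was 23.2 CPM in the CKO-labelled library and 9.31 CPM in the WT-labelled library (1.32, 0.82 to 1.84). Hspa1a and Hspa1b were far below their B-like levels in both libraries. Dnajb1, their J-domain partner, had 55.8 CPM (50.8 to 61.3) in the CKO-labelled library and 27.9 CPM (23.2 to 33.3) in the WT-labelled library (1.0, 0.71 to 1.30), and Dnaja1 had 160 and 96.9 CPM in that order (0.72, 0.57 to 0.89). Hspa1a, Hspa1b, Dnajb1 and Dnaja1, 4 of the 10 members, were at least 1.5-fold higher in the CKO-labelled library, where 6.84% of 9012 genes were, and none was at least 1.5-fold lower, where 9.96% were.
The largest plasma-like cluster was led by Ighv7-3, Igkv1-110, Iglc1 and Igkc in the CKO-labelled library (164 cells, 33%) and by Iglc2, Iglc3, Jchain and Igha in the WT-labelled library (69 cells, 32.4%). Some of these directions turned under an alternative: Hspa1a was at a log2 ratio of -0.23 with cells thinned to 1000 UMIs, and Hspa1b was at -0.92 with each cell classed by its own markers. After thinning, 6 plasma-like cells (1.21%) of the CKO-labelled library and 2 (0.943%) of the WT-labelled library had a UMI of Hspa1a. The pair again rested on few cells, since 10 of 497 plasma-like cells of the CKO-labelled library held 79.9% of its UMIs, and 3 of 213 of the WT-labelled library held 48.8%. Cells with any UMI of Hspa1a were 5.23% in the CKO-labelled library and 5.63% in the WT-labelled library. Hsp90ab1 was lower, at 489 CPM in the CKO-labelled library and 560 CPM in the WT-labelled library (-0.19, -0.27 to -0.12). Of 20 immediate early genes read in this class, 6 were at least 1.5-fold lower and none at least 1.5-fold higher in the CKO-labelled library, where 9.96 and 6.84% of genes were. The neutrophil markers summed to 140 CPM in plasma-like cells of the CKO-labelled library and 20.7 CPM in those of the WT-labelled library, and their part was not tested.

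**Figure D4:**
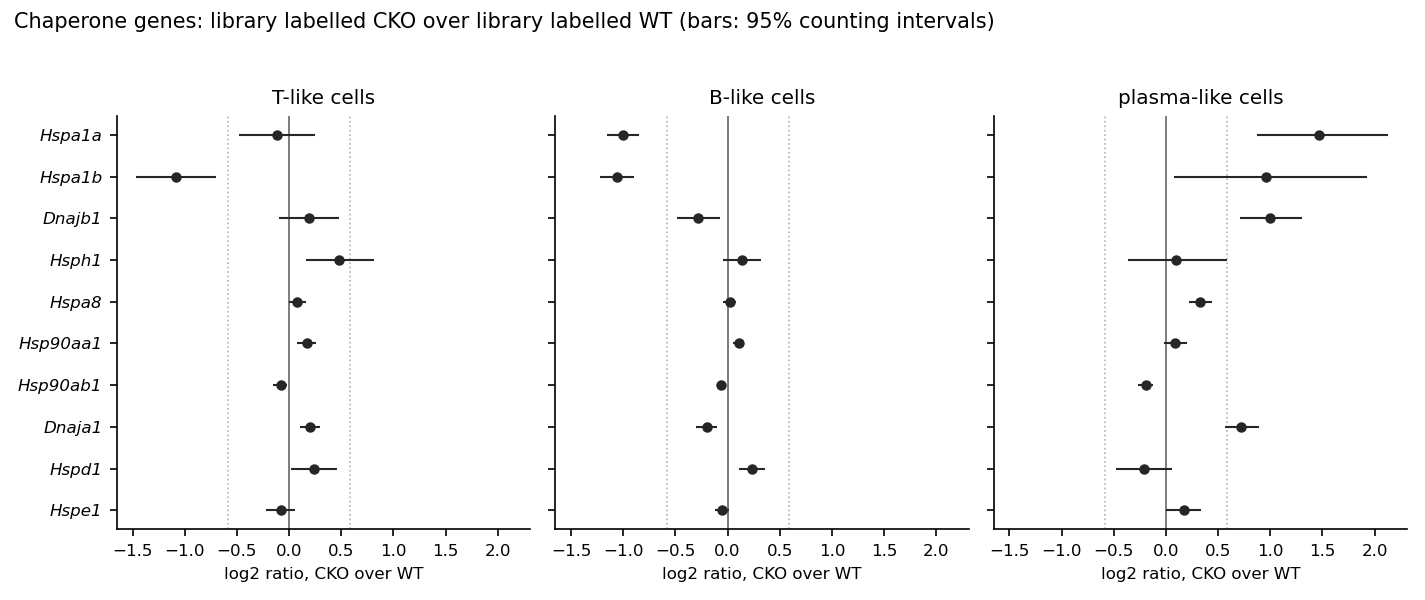
Log2 ratio of the CKO-labelled library over the WT-labelled library (x axis) for each chaperone gene (y axis) in T-like, B-like and plasma-like cells; points are ratios of CPM, bars are 95% counting intervals, and dotted lines mark 1.5-fold. Hspa1a lies at -1.0 in B-like and 1.47 in plasma-like cells, and the constitutive and chaperonin genes lie near 0 in T-like and B-like cells.

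Classes with fewer cells gave both directions. In dendritic-like cells Hspa1a had 262 UMIs, 86.5 CPM, in 318 cells of the CKO-labelled library and 2 UMIs, 5.85 CPM, in 27 cells of the WT-labelled library, a log2 ratio of 3.89 with an interval of 2.02 to 6.94. In the CKO-labelled library, 15 of these cells held 88.3% of the pair's UMIs. Hspa8 was higher there too, at 1352 CPM in the CKO-labelled library and 866 CPM in the WT-labelled library (0.64, 0.47 to 0.82), and 5 of 10 members (Hspa1a, Hspa1b, Dnajb1, Hspa8 and Dnaja1) were at least 1.5-fold higher, where 24.5% of 7766 genes were. Hspa1b and Dnajb1, with 8 and 9 UMIs in the WT-labelled library, had intervals that held 0. Dnaja1, at 416 CPM in the CKO-labelled library and 249 CPM in the WT-labelled library, turned to a log2 ratio of -0.05 with cells thinned to 1000 UMIs. The neutrophil markers summed to 1706 CPM in dendritic-like cells of the CKO-labelled library and 1240 CPM in those of the WT-labelled library, and immunoglobulin took 0.207% and 4.83% of UMIs in that order; their part was not tested.
In ILC3-like cells the pair had 63 UMIs, 131 CPM, in the CKO-labelled library and 7 UMIs, 29.2 CPM, in the WT-labelled library (2.16, 1.03 to 3.53), and 3 of 10 members (Hspa1a, Hspa1b and Hsph1) were at least 1.5-fold higher, where 13.1% of 4229 genes were; the intervals of Hspa1b and Hsph1 held 0. The summed stress-inducible group there had a log2 ratio of 1.17, and 0.03 with each cell classed by its own markers. The neutrophil markers summed to 400 CPM in ILC3-like cells of the CKO-labelled library and 2020 CPM in those of the WT-labelled library, and their part was not tested. In neutrophil-like cells the pair had 50 UMIs, 9.67 CPM, in the CKO-labelled library and 21 UMIs, 56.1 CPM, in the WT-labelled library (-2.54, -3.30 to -1.73), and 2 cells held 61.9% of those 21 UMIs. The class held different clusters in each library: its largest was led by G0s2, Hdc, Cxcl3 and Csf3r in the CKO-labelled library (342 cells, 19.5%) and by Hcar2, Ccl3, Clec4d and Il1f9 in the WT-labelled library (67 cells, 40.4%). The clusters led by Retnlg and Cxcl3 and by Ngp and Lcn2 held 288 and 166 cells of the CKO-labelled library against 3 and 0 cells of the WT-labelled library. The 10 neutrophil markers summed to 167879 CPM in the class in the CKO-labelled library and 82779 CPM in the WT-labelled library. Of the 9 members with at least 20 UMIs, 5 (Hspa1a, Hspa1b, Hsp90aa1, Dnaja1 and Hspe1) were at least 1.5-fold lower there, where 25.8% of 6200 genes were, and 13 of 20 immediate early genes were as well.
ILC2-like cells had lower Hsp90ab1 (1247 CPM in the CKO-labelled library, 1531 CPM in the WT-labelled library) and Dnaja1 (703 and 931 CPM in that order), with log2 ratios of -0.30 and -0.40, and 3 of 9 members read (Hspa1a, Dnajb1 and Hsph1) were at least 1.5-fold lower, where 10.8% of 5356 genes were. Hspa1a (10 UMIs in each library) and Hsph1 (13 UMIs in the CKO-labelled library, 14 in the WT-labelled library) had intervals that held 0. The neutrophil markers summed to 384 CPM in ILC2-like cells of the CKO-labelled library with 9 of 10 read, and to 23.0 CPM in those of the WT-labelled library with 5 of 10 read; their part was not tested. The largest ILC2-like cluster was led by Il17rb, Ctla2a, Calca and Rora in the CKO-labelled library (112 cells) and by Csf2, Ccl1, Gata3 and Rora in the WT-labelled library (42 cells). In NK-like cells none of the 8 members read was at least 1.5-fold higher or lower, where 22.5 and 13.9% of 5682 genes were, and the members summed to 4931 CPM in the CKO-labelled library and 5151 CPM in the WT-labelled library (-0.06, -0.17 to 0.04).

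A further B lineage cluster stood apart for its chaperones in both libraries. It was led by Irf4, Gnl3, Ncl and Rasgef1b, held 553 cells of the CKO-labelled library and 108 of the WT-labelled library, and was left unnamed by the marker rule; no chaperone gene was used to form it, and what follows is a description. Set against B-like cells of the same library, Hspd1 was at 415 CPM against 165 CPM in the CKO-labelled library (log2 ratio 1.33) and at 496 CPM against 141 CPM in the WT-labelled library (1.82). Hsp90ab1 was at 3099 CPM against 1600 CPM in the CKO-labelled library (0.95) and 3610 CPM against 1663 CPM in the WT-labelled library (1.12).
Hsp90aa1, Hspa8 and Hsph1 were higher in the cluster too, with log2 ratios of 0.87, 0.80 and 0.89 in the CKO-labelled library and 0.86, 0.69 and 0.64 in the WT-labelled library. The inducible pair was lower in it than in the pooled B-like cells: Hspa1a was at 38.0 CPM against 62.0 CPM in the CKO-labelled library and 28.8 CPM against 124 CPM in the WT-labelled library. It was not lower than in each B-like cluster: the summed pair, at 75.1 CPM in the CKO-labelled library and 88.1 CPM in the WT-labelled library, was above 4 of the 9 B-like clusters in each library, those led by Pkib and Serpina3g, by Ebf1 and Scd1, by Fcer2a and Dmxl1 and by Apoe and Fcrl5. At least 1.5-fold higher in the cluster were 6 members of the CKO-labelled library, where 11.4% of 10273 genes were, and 7 members of the WT-labelled library, where 15.1% of 8775 genes were. At least 1.5-fold lower were Hspa1a and Hspa1b in both, where 16.7% of genes were in the CKO-labelled library and 23.6% in the WT-labelled library. Dnajb1 was not 1.5-fold apart, at 54.7 CPM against 49.6 CPM in the CKO-labelled library (0.14, -0.15 to 0.42) and 48.0 CPM against 60.2 CPM in the WT-labelled library (-0.32, -0.92 to 0.22).
Among genes outside the 10, Myc, a driver of cell growth, was at 238 CPM in the cluster against 62.0 CPM in B-like cells of the CKO-labelled library and 359 against 99.3 CPM in the WT-labelled library. Cct3, a subunit of the cytosolic chaperonin TRiC, was at 238 against 114 CPM and 274 against 111 CPM in the same order. Between the libraries the cluster's Hspd1 had a log2 ratio of -0.26 (-0.44 to -0.07). A cycling cluster led by Pclaf and Hist1h1b was also left unnamed by the marker rule. The immunoglobulin genes Ighg2c and Ighg2b were among its leading genes, and its median depth was 21408 UMIs. With 87 cells of the CKO-labelled library and 54 of the WT-labelled library, it had high Hspd1 (418 and 281 CPM in that order). Its Hsp90ab1 was high too (2889 and 2727 CPM).

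**Figure D5:**
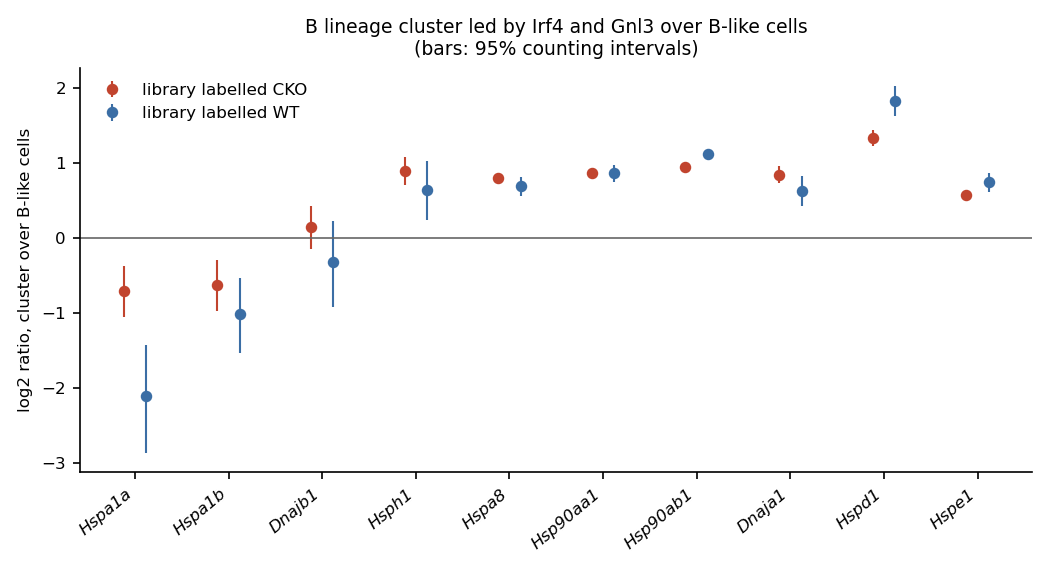
Log2 ratio of the B lineage cluster led by Irf4 and Gnl3 over B-like cells of the same library (y axis) for each chaperone gene (x axis); red points are the CKO-labelled library and blue points the WT-labelled library, with 95% counting intervals. Hspd1 is highest, at 1.33 in the CKO-labelled library and 1.82 in the WT-labelled library, and Hspa1a and Hspa1b lie below 0 in both.

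Related genes were read from 10 lists, in T-like and B-like cells. Of the 4 HSF factors, 3 had at least 20 UMIs in each class and none was 1.5-fold apart; Hsf1, the master factor of the response, was at 43.6 CPM in B-like cells of the CKO-labelled library and 35.5 CPM in those of the WT-labelled library (0.30, 0.05 to 0.55), and at 25.0 and 28.3 CPM in T-like cells in that order. None of the 14 TRiC chaperonin and prefoldin genes was 1.5-fold apart in either class, with medians of -0.06 in T-like and -0.04 in B-like cells.
Among chaperones of the endoplasmic reticulum, 3 of 13 were at least 1.5-fold higher in T-like cells of the CKO-labelled library, where 13.3% of genes were, and none was at least 1.5-fold lower, where 8.18% were; their median log2 ratio was 0.32. They were Hspa5 (BiP, the HSP70 of that compartment), at 1866 CPM in the CKO-labelled library and 1226 CPM in the WT-labelled library (0.61, 0.53 to 0.68), Manf at 233 and 140 CPM (0.73) and Sdf2l1 at 42.9 and 20.6 CPM (1.06). Hsp90b1, the HSP90 of the same compartment, was at 568 and 401 CPM (0.50). In B-like cells none of the 13 was 1.5-fold apart, and Hspa5 was at 741 CPM in the CKO-labelled library and 581 CPM in the WT-labelled library (0.35).
The other lists showed few genes past 1.5-fold, and those on low counts were named after their values were seen. Of 20 other J-domain genes, Dnaja3 and Dnajb14 were at least 1.5-fold lower in T-like cells of the CKO-labelled library, from 14 to 20 UMIs a library with intervals that held 0. In B-like cells Dnajc15, a J-domain protein of the mitochondrial inner membrane, was at 18.3 CPM in the CKO-labelled library and 29.9 CPM in the WT-labelled library (-0.71, -1.01 to -0.40), the only 1 of 19 read.
Of 16 HSP90 family and co-chaperone genes none was 1.5-fold apart in T-like cells. In B-like cells Fkbp5, an immunophilin co-chaperone, was at 10.6 CPM in the CKO-labelled library and 6.02 CPM in the WT-labelled library (0.82, 0.23 to 1.46), and Ahsa1, which stimulates the ATPase of HSP90, was at 45.6 and 60.2 CPM in that order (-0.40). Of 11 nucleotide exchange and binding factors, Bag3 and Sil1 were past 1.5-fold lower in T-like cells and Bag3 past 1.5-fold higher in B-like cells, with intervals that held 0.
Of 11 genes of mitochondrial protein quality control, the protease gene Htra2 was at 15.3 CPM in T-like cells of the CKO-labelled library and 5.65 CPM in those of the WT-labelled library (1.43, 0.45 to 2.54), and Clpb was at 7.83 and 13.9 CPM in that order. None was 1.5-fold apart in B-like cells, where Hspa9, the mitochondrial HSP70, was at 134 and 111 CPM (0.27). Of 9 small heat shock proteins none reached 20 UMIs in T-like cells, and Hspb1 (HSP27) was lower in B-like cells, at 5.52 CPM in the CKO-labelled library and 11 CPM in the WT-labelled library (-0.99, -1.51 to -0.45). Cells with 5 or more pair UMIs held 35 of its 80 UMIs in the CKO-labelled library and 41 of its 51 in the WT-labelled library. In B-like cells with no pair UMI, Hspb1 was at 2.13 and 2.21 CPM in that order. Of 10 other HSP70 family genes 7 were read in each class, and Hspa5 in T-like cells was the only 1 past 1.5-fold in either.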

How the data were processed

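The deposited values are raw UMI counts per gene and barcode, written as integers per the file headers. Per the submitters' processing notes, Cell Ranger 5.0.0, Seurat 3.2.3 and mm10 were used; the matrix headers name Cell Ranger 6.0.1. Barcodes with under 200 genes or over 20% mitochondrial UMIs, and cells marked by Scrublet in each library, were left out. Counts scaled to 10000 UMIs per cell were log transformed; both libraries were clustered together (2000 variable genes, 30 components, 15 neighbours, Leiden, scanpy 1.11.5) and subclustered, without the chaperone and immediate early genes. A cluster took the class with most markers among its top 10 genes by fold. With none there, it took the class with the largest share of markers detected, if at least 80%. At least 3 markers of the class had to be detected, each in 20% of the cluster's cells. Ties stayed unnamed, as did shallow clusters without a top marker. So did clusters in which another class had a larger share of its markers detected. Clusters in which a class of another lineage reached 80% were called mixed. UMIs were summed per library and class and scaled to 1000000. Intervals are exact Poisson intervals for levels, exact conditional binomial intervals for ratios and Clopper-Pearson intervals for shares, at 95%, for counting error only. The interval and fold calculations were tested on simulated data. The simulated sums were drawn from the Poisson model that the intervals assume, so UMIs that sit in few cells were not covered. Depth was 57740083 UMIs in the CKO-labelled library and 18627050 UMIs in the WT-labelled library. All 10 members and up to 4 genes of each related list with the largest ratios (at least 20 UMIs and 20 CPM) could be named; Irf4 Gnl3 cluster genes outside the members were chosen after their values were seen. The members and lists were chosen with earlier results of these data known. Upstream sequences are from RefSeq (GRCm38.p6), coordinates from GENCODE vM21.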

Additional observations from a re-analysis of the deposited data

Results flagged for a closer look

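Hspa1a and Hspa1b differed between the libraries in opposite directions in different classes, and the difference between classes was not tested, since each label has 1 library. For Hspa1a the log2 ratio of the CKO-labelled library over the WT-labelled library was -1.0 in B-like cells and 1.47 in plasma-like cells. For Hspa1b it was -1.08 in T-like, -1.06 in B-like and 0.96 in plasma-like cells. The plasma-like values rest on 135 and 49 UMIs in the CKO-labelled library and 27 and 14 UMIs in the WT-labelled library, and both turned under an alternative given in the next section.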

How the results depend on the processing

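No paired analysis was possible because each label has 1 library. Of 841 alternative values, 697 stayed inside the interval or count of the value reported. Another 141 moved (60 of them shares of cells without thinning) and 3 turned, and the causes were not tested. Not every change of sign was counted as turned. Group ratios near level also changed sign, such as the T-like constitutive one, reported as 0.05 and given below with its alternatives. Turned were Hspa1a (-0.23, thinned to 1000 UMIs) and Hspa1b (-0.92, each cell classed by its own markers) in plasma-like cells and Dnaja1 in dendritic-like cells (-0.05, thinned). In T-like cells the stress-inducible log2 ratio was 0.16 when thinned, the constitutive one -0.10 with own markers, -0.01 with a median of ratios scaling and -0.02 with clusters weighted alike, the chaperonin one -0.28 with own markers, and 2 members passed 1.5-fold higher when thinned. In B-like cells the stress-inducible ratio was -0.37 with own markers and -0.76 with clusters weighted alike; the constitutive one 0.01 with the chaperone genes left in the clustering, -0.09 with own markers, -0.05 thinned and 0.03 with median of ratios; the chaperonin one -0.08 with own markers and 0.07 thinned. In B-like cells Hspa1a ran between -1.29 and -0.58 and Hspa1b between -1.29 and -0.72 over all alternatives. Leaving immunoglobulin UMIs out of the totals, and counting the Irf4 and Gnl3 cluster as B-like, were added after seeing the data. Depth limits the dendritic-like, NK-like and ILC3-like values of the WT-labelled library, which rest on 27, 26 and 37 cells.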
